A study of Danio rerio with 28 samples.

Results

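The 4 zebrafish genes lygl1 (ENSDARG00000056874), FGL2 (ENSDARG00000019861), DRAM1 (ENSDARG00000045561) and sdcbp2 (ENSDARG00000012513) were followed across brain mpeg1+ cells of fish left alone, injected with PBS or injected with Escherichia coli. They were picked out of 32520 genes in the table because their counts were much higher after E. coli in ccl34b.1+ cells. That rise is therefore given as a description with no test, and tests are kept for contrasts between libraries that did not choose the genes. In the injection experiment those tests still took their spread from all 18 libraries, the choosing ones included, so values from fits without them are given beside the calls. All 4 had reads in all 28 libraries and all passed the filter on low counts.

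All fish carried 2 reporters, TgBAC(ccl34b.1:eGFP) and Tg(mpeg1:DsRedx), so that the cells were gated by what the ccl34b.1 and mpeg1 promoters drive. From each brain, 100 ccl34b.1+mpeg1+ and 100 ccl34b.1-mpeg1+ cells were sorted, and 1 of 3 technical replicates per gate was sequenced, chosen on cDNA quality. Of 14 fish, 5 were untreated and 4 months old, and 9 belonged to an injection experiment at 6 months of age, with 2 control, 4 PBS and 3 E. coli fish. The labels give the treatments as control, PBS injected and E. coli injected, and none of the sources used here gave the dose, the route or the time after injection.

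lygl1 encodes a goose-type lysozyme, an enzyme that cuts the peptidoglycan of bacterial cell walls. FGL2 encodes a fibrinogen-like protein, known in mammals both as a membrane-bound enzyme that activates prothrombin and as a secreted regulator of immune cells. DRAM1 encodes a lysosomal membrane protein that promotes autophagy. It is a p53 target in human cells and is induced through Myd88 and NF-kB in zebrafish infected with mycobacteria. sdcbp2 encodes syntenin-2, a PDZ-domain protein that binds phosphoinositides and the tails of membrane proteins such as syndecans.

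Libraries held 20.4 to 30.4 M counts (ccl34b.1+) and 14.2 to 24.0 M counts (ccl34b.1-) in untreated fish, against 2.24 to 9.69 M in the injection experiment. The 4 genes had at least 76 counts in any injection library, and 78 or more in the untreated ones. The 2 experiments differ in age and depth and were scaled separately, so levels across them are set side by side and not tested. Levels are in CPM, counts per 1e6 of the library total after TMM scaling, and are given here as mean ± SD. The eGFP gate matched its gene. After E. coli, ccl34b.1 stood at 923.8 ± 535 CPM (n = 3) in ccl34b.1+ and 77.2 ± 71.4 CPM (n = 3) in ccl34b.1- cells. After PBS it stood at 4934 ± 1107 and 79.2 ± 43.6 CPM (n = 4 each). Microglia markers were much lower in the ccl34b.1+ cells of E. coli fish than in those of PBS fish. The summed level of the 15 marker genes ranged from 5429 to 9622 CPM against 50826 to 75456 CPM, and 5 of the 13 measured markers were called lower and 0 higher, where 0.813% of all genes were called lower and 0.7% higher by edgeR's quasi-likelihood test. This bulk measurement cannot tell fewer cells of a type from less RNA per cell. In ccl34b.1- cells, labelled microglia as well, the same sum was 1306 to 3606 CPM after E. coli and 3950 to 5974 CPM after PBS. Here 0 of the 13 markers were called (0.403% of all genes). The 9 dendritic cell markers in this gate summed to 9855 to 20441 CPM after E. coli and 11787 to 16674 CPM after PBS. Of these 9, 1 was called lower and 0 higher (0.169% and 0.233% of all genes). Their median log2 change was -1.03, with 3 positive. The part of these shifts in the values of the 4 genes was not tested. In ccl34b.1+ cells the same 9 dendritic cell markers summed to 405 to 509 CPM after E. coli and 342 to 683 CPM after PBS. By edgeR, 6 of the 9 were called lower in ccl34b.1+ than in ccl34b.1- cells of E. coli fish (2.31% of all genes were called). In PBS fish 7 of the 9 were called lower (2.69% of all genes were called). The part of cell type in the gate differences of the 4 genes was not tested. The 7 neutrophil marker IDs in ccl34b.1+ cells summed to 145 to 369 CPM after E. coli and 146 to 272 CPM after PBS, with 0 of 4 measured called. CSF3R averaged 74.6 against 33.4 CPM and il6r 212 against 183 CPM. The means of mmp13a (0.841 against 3.11 CPM) and ABCB9 (0.154 against 2.70 CPM) were lower after E. coli. In these libraries npsn and scpp8 were at 0 counts, and lyz was at 0 counts in all 28.

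After E. coli, lygl1, the lysozyme gene, was at 3762, 3638 and 3713 CPM in the 3 ccl34b.1+ libraries, against 200.3, 142, 135 and 219.9 CPM after PBS and 151 and 181 CPM in control fish. The E. coli libraries lay far above every other ccl34b.1+ library and close to each other, and the PBS and control ranges overlapped. The fitted rise over PBS was 4.41 ± 0.38 (log2 ± SE), or 21.2-fold.

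FGL2 was at 5498, 10204 and 8882 CPM after E. coli, 849.7, 1564, 595 and 496 CPM after PBS, and 172 and 237 CPM in control ccl34b.1+ libraries. The 3 treatments formed 3 ranges that did not overlap, with PBS between control and E. coli. The fitted rise was 3.23 ± 0.38 (log2), or 9.35-fold, over PBS and 5.32 ± 0.56, or 40.1-fold, over control. E. coli libraries lay above both control libraries for 11.2% of all fitted genes.

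DRAM1, the autophagy modulator, was at 2084, 2529 and 2072 CPM after E. coli, 159, 182, 229 and 151 CPM after PBS, and 78.9 and 193 CPM in control ccl34b.1+ libraries. All E. coli libraries were above all others, while the PBS range overlapped the control range. The fitted rise over PBS was 3.63 ± 0.45 (log2), or 12.3-fold.

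sdcbp2 was at 3165, 3204 and 3039 CPM after E. coli, 352, 595, 326 and 342 CPM after PBS, and 306 and 409 CPM in control ccl34b.1+ libraries. PBS and control libraries were interleaved, and E. coli libraries stood apart from both. The fitted rise over PBS was 2.96 ± 0.36 (log2), or 7.76-fold. In this contrast 188 of 12421 fitted genes (1.51%) passed an adjusted p of 0.05, 0.7% higher and 0.813% lower, and 6.1% had E. coli libraries all above PBS libraries. Because the 4 genes were chosen on it, nothing is read from their number here.

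**Figure D1:**
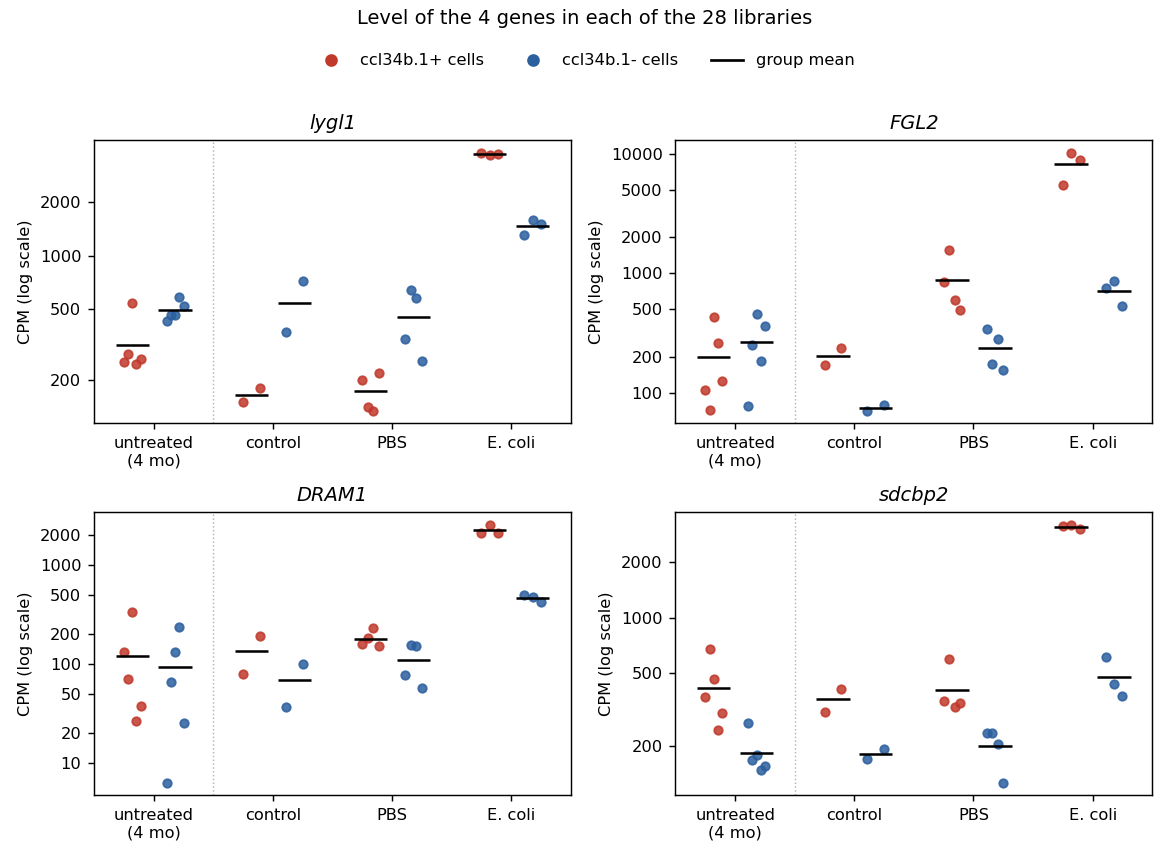
Level of each gene in every library, in CPM on a log axis, by treatment and gate. Points are single libraries, bars are group means, and the dotted line separates the untreated fish, which were scaled on their own. For each gene the 3 ccl34b.1+ libraries of E. coli fish sit highest, and for lygl1 the ccl34b.1- points lie above the ccl34b.1+ points in control and PBS fish.

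Replicate spread after E. coli differed among the genes. In the 3 ccl34b.1+ libraries the coefficient of variation was 1.69% for lygl1, 2.75% for sdcbp2, 11.7% for DRAM1 and 29.6% for FGL2. The median over the 1194 genes with a mean of at least 100 CPM in that group was 30.0%. That median is not matched on level, and these libraries chose the genes, so the values are a description.

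The ccl34b.1- cells come from the same fish but were not used to choose the genes, and there the response was tested. All 4 genes had their E. coli libraries above all PBS libraries. lygl1, FGL2 and DRAM1 passed the threshold when the spread was estimated over all 18 injection libraries, and none of them passed when the ccl34b.1+ libraries were left out of the fit. In this comparison 50 genes (0.403%) were called by edgeR's quasi-likelihood test, 0.233% higher and 0.169% lower, and 3.34% of genes had E. coli libraries all above PBS libraries.

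In ccl34b.1- cells lygl1 was at 1302, 1579.7 and 1502 CPM after E. coli against 339, 641, 577 and 255 CPM after PBS. The lowest E. coli library lay well above the highest PBS library. The fitted difference was 1.69 ± 0.35 (log2), or 3.23-fold (adjusted p = 0.0181, edgeR's quasi-likelihood test).

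FGL2 in ccl34b.1- cells was at 758, 859.7 and 532 CPM after E. coli and 345, 176, 279.8 and 155 CPM after PBS. The groups did not overlap, and all 7 libraries lay well under the ccl34b.1+ libraries of E. coli fish. The fitted difference was 1.58 ± 0.36 (log2), or 3.00-fold (adjusted p = 0.0397, edgeR's quasi-likelihood test).

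DRAM1 in ccl34b.1- cells was at 496, 469.8 and 417 CPM after E. coli and 77.4, 154, 152 and 56.7 CPM after PBS. The E. coli libraries were close together and all higher. The fitted difference was 2.07 ± 0.43 (log2), or 4.19-fold (adjusted p = 0.0181, edgeR's quasi-likelihood test).

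sdcbp2 in ccl34b.1- cells was at 607, 433 and 374 CPM after E. coli and 234, 235, 205 and 126 CPM after PBS. The groups did not overlap, but the difference of 1.24 ± 0.35 (log2) did not pass the threshold (adjusted p = 0.129, edgeR's quasi-likelihood test).

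The 3 calls rest on few libraries and on the ccl34b.1+ libraries that chose the genes. Fitted on the 9 ccl34b.1- injection libraries alone, an alternative added after seeing the data, the differences were 1.62, 1.52 and 2.00 with adjusted p = 0.123, 0.270 and 0.207 for lygl1, FGL2 and DRAM1 by edgeR. That of lygl1 was lost without PBS replicate 1 (adjusted p = 0.101), PBS replicate 4 (0.0603) or E. coli replicate 2 (0.0551), and that of DRAM1 without the same libraries (0.101, 0.0643 and 0.0513). The call of FGL2 was lost without PBS replicate 2 (adjusted p = 0.0958), 3 (0.0702) or 4 (0.112) or E. coli replicate 1 (0.0826) or 2 (0.116), all by edgeR's quasi-likelihood test. FGL2 also missed the threshold with DESeq2 size factors (adjusted p = 0.0885), a mean of at least 10 CPM (0.0743), a replicate block (0.0708) and voom (0.904). Fitted on these 2 groups alone, which leaves 7 libraries to estimate the spread, none of the 3 passed either: the differences were 1.61, 1.51 and 1.99 with adjusted p = 0.282, 0.332 and 0.282 by edgeR. Neutrophil markers also moved with E. coli in this gate. Their summed level ranged from 13.2 to 685 CPM against 12.6 to 45.1 CPM after PBS, with overlap. Of 4 measured, 1 was called higher (mmp13a, at 0, 49.0 and 525 CPM), where 0.233% of all genes were. Of the others, CSF3R averaged 24.0 CPM (6.18 to 57.6) against 4.23 CPM (0 to 11.8). For il6r the means were 63.7 CPM (4.66 to 140) and 7.99 CPM (0.113 to 20.7), and both genes overlapped between treatments. At 0 counts after PBS were npsn (mean 9.44 CPM after E. coli, in 3 of 3 libraries) and scpp8 (mean 9.42 CPM, in 1 library). The npsn mean came mostly from 1 library at 27.8 CPM, with a median of 0.406 and a minimum of 0.101 CPM. ABCB9 went the other way, with a mean of 14.8 CPM after PBS and 0 CPM after E. coli. The part of these markers in the result was not tested. Replicate 1, with 0 mmp13a counts but some npsn counts, had the lowest lygl1 level of the 3 at 1302 CPM. It had the highest DRAM1 level at 496 CPM, and both were above all PBS libraries. The count of 1 marker in 1 library cannot show whether neutrophils were absent from it.

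Against control fish in the same gate, FGL2 and DRAM1 were called higher after E. coli, and all 4 genes again had E. coli libraries above both control libraries. Control levels in ccl34b.1- cells were 71.0 and 78.9 CPM for FGL2 and 37.2 and 99.4 CPM for DRAM1. In untreated fish, scaled separately, the ranges in this gate were 76.9 to 457 CPM for FGL2 and 6.37 to 237 CPM for DRAM1. The differences from control were 3.26 ± 0.50 (log2) for FGL2 (adjusted p = 0.0032) and 2.75 ± 0.58 for DRAM1 (adjusted p = 0.0266), by edgeR's quasi-likelihood test. In this comparison 34 genes (0.274%) were called, 0.105% higher, and 7.2% had E. coli libraries all above control libraries. For lygl1, with 373 and 717 CPM in control libraries, the difference was 1.42 ± 0.44 (adjusted p = 0.266), and for sdcbp2, with 168 and 191 CPM, it was 1.39 ± 0.44 (adjusted p = 0.299), neither past the threshold of edgeR's test. The E. coli libraries are shared with the comparison against PBS. The DRAM1 call was lost without control replicate 1 (adjusted p = 0.628), control replicate 2 (0.0663) or E. coli replicate 2 (0.0506), and neither gene passed when these 5 libraries were fitted alone by edgeR (adjusted p = 0.255 and 0.405). With the 9 ccl34b.1- injection libraries alone, FGL2 passed (3.19, adjusted p = 0.0406) and DRAM1 did not (2.68, 0.245) by edgeR. voom ended both calls (adjusted p = 0.85 for FGL2 and 0.0792 for DRAM1) and called lygl1 higher (1.51, adjusted p = 0.0291).

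**Figure D2:**
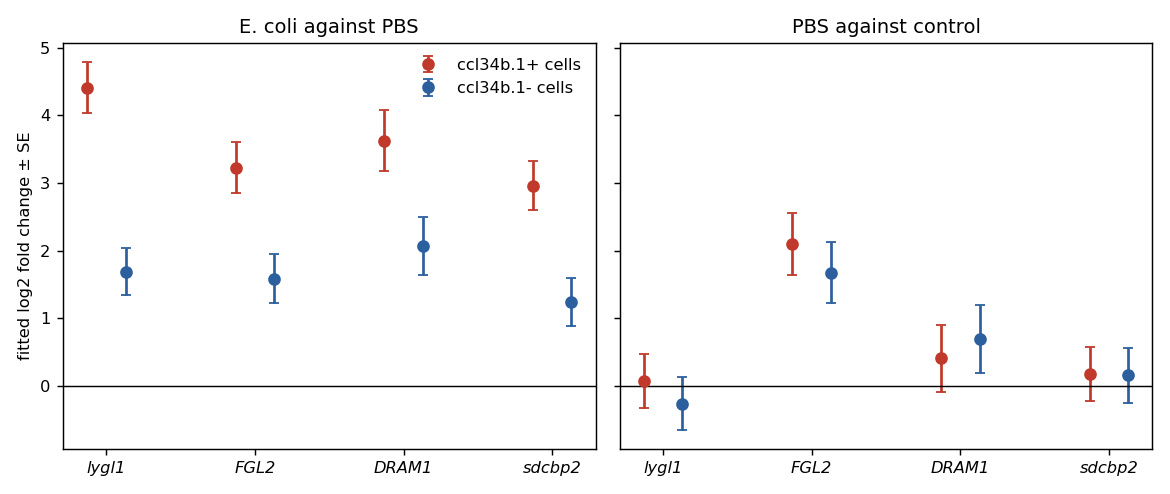
Fitted log2 fold changes with standard errors for E. coli against PBS (left) and PBS against control (right) in each gate. E. coli effects lie between 2.96 and 4.41 in ccl34b.1+ cells and between 1.24 and 2.07 in ccl34b.1- cells, and on the right FGL2 stands highest in both gates.

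PBS fish were compared with control fish for a shift by PBS alone. FGL2 was the gene with the largest difference of the 4 in both gates. In ccl34b.1- cells it was at 345, 176, 279.8 and 155 CPM after PBS, all above the 2 control libraries at 71.0 and 78.9 CPM. The difference was 1.67 ± 0.45 (log2), or 3.19-fold, and did not pass the threshold (adjusted p = 0.716, edgeR's quasi-likelihood test). Non-overlap in this direction was seen for 3.34% of all genes. In ccl34b.1+ cells the FGL2 difference was 2.10 ± 0.46 (log2), or 4.29-fold, without overlap, as for 4.46% of all genes. In untreated fish, younger and scaled separately, FGL2 ranged from 76.9 to 457 CPM in ccl34b.1- cells, a range that holds all PBS values of that gate. In ccl34b.1+ cells of untreated fish it ranged from 71.8 to 432 CPM, under the lowest PBS library at 496 CPM.

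The other 3 genes overlapped between PBS and control in both gates. In ccl34b.1- cells their differences were -0.27 ± 0.39 (lygl1), 0.69 ± 0.50 (DRAM1) and 0.15 ± 0.40 (sdcbp2), with adjusted p of 1, 0.993 and 1 by edgeR. In ccl34b.1+ cells they were 0.07 ± 0.40, 0.41 ± 0.50 and 0.17 ± 0.40 (log2). No gene of 12421 (0%) was called for PBS against control in either gate by edgeR. An unadjusted p under 0.05 was seen for 642 genes in ccl34b.1- and 628 in ccl34b.1+ cells, close to the number that chance alone gives among 12421. DESeq2 called 127 and 82 genes and voom 41 and 207. With 2 control fish, differences of these sizes are poorly resolved.

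The gate with the higher mean level differed among the genes in control and PBS fish and was the same for all 4 in E. coli fish. The genes were chosen on a rise in ccl34b.1+ cells of E. coli fish, a choice that favours the latter. lygl1 was lower in ccl34b.1+ than in ccl34b.1- cells of control fish, 166 ± 21.0 against 545 ± 243 CPM (SD, n = 2 each), and of PBS fish, 174 ± 42.1 against 453 ± 185 CPM (n = 4 each), with no overlap. After E. coli it was higher in ccl34b.1+ cells, 3704 ± 62.6 against 1461 ± 144 CPM (n = 3 each), again with no overlap. The gate differences were -1.71 ± 0.47 in control, -1.38 ± 0.33 in PBS and 1.34 ± 0.38 in E. coli fish (log2).

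FGL2 and sdcbp2 were higher in ccl34b.1+ cells of control, PBS and E. coli fish, without overlap in any of them. For FGL2 the gate difference was 1.45 ± 0.49 in control, 1.87 ± 0.35 in PBS and 3.52 ± 0.43 in E. coli fish (log2), and for sdcbp2 it was 0.99 ± 0.47, 1.01 ± 0.33 and 2.73 ± 0.40. DRAM1 overlapped between the gates in control (0.99 ± 0.57) and PBS fish (0.71 ± 0.40) and did not after E. coli (2.27 ± 0.48). Only the control-fish and untreated-fish gate differences are free of libraries that chose the genes. In control fish none of the 4 passed edgeR's quasi-likelihood test (adjusted p = 0.0891 for lygl1, 0.293 for FGL2, 0.788 for DRAM1 and 0.788 for sdcbp2), where 108 genes (0.869%) were called and 22.5% of genes had ccl34b.1+ libraries all higher and 17.8% all lower. DESeq2 called lygl1 lower (-1.89, adjusted p = 0.0112). In PBS fish 5.1% of genes did not overlap with ccl34b.1+ higher and 4.81% with ccl34b.1+ lower, and in E. coli fish 8.12% with ccl34b.1+ higher.

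**Figure D3:**
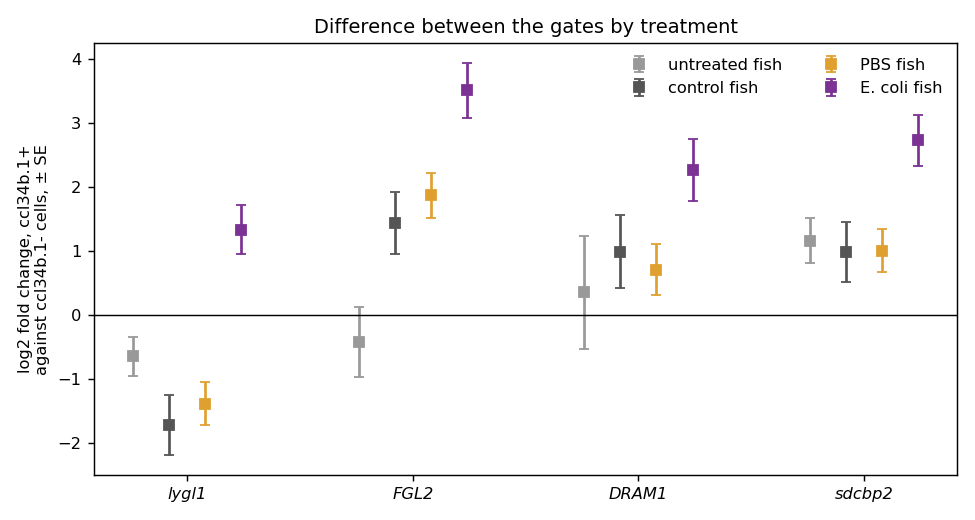
Difference between the gates (ccl34b.1+ against ccl34b.1- cells, log2 with standard error) for each gene in untreated, control, PBS and E. coli fish. lygl1 lies below 0 in untreated, control and PBS fish and at 1.34 in E. coli fish, and the other 3 genes have their highest value in E. coli fish.

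The rise over PBS was larger in ccl34b.1+ than in ccl34b.1- cells by 2.72 ± 0.50 (log2) for lygl1, 1.64 ± 0.52 for FGL2, 1.56 ± 0.61 for DRAM1 and 1.72 ± 0.50 for sdcbp2. These values use the libraries that chose the genes and are given with no test. After E. coli the ccl34b.1- level was 39.4% of the ccl34b.1+ level for lygl1, 20.7% for DRAM1, 15.0% for sdcbp2 and 8.74% for FGL2. The same ratio in these fish was 8.36% for ccl34b.1, the gene behind the gate, and among microglia markers 1.04% for P2RY12, 1.94% for apoc1, 4.82% for apoeb, 13.5% for lgals3bp.1 and 48.0% for havcr1. Not all microglia markers were lower in ccl34b.1- cells: after E. coli 9 of the 13 measured were higher in ccl34b.1+ cells by fitted difference. The rest were higher in ccl34b.1- cells: c1qa (70.1 against 30.6 CPM), c1qb (242 against 22.1 CPM), c1qc (318 against 53.7 CPM) and MPEG1 (ENSDARG00000055290, 943 against 122 CPM). Whether ccl34b.1+ cells in the ccl34b.1- gate took part in the rise was not tested.

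In untreated fish, 5 libraries of each gate gave the levels without any injection. lygl1 ranged from 248 to 539 CPM (median 264) in ccl34b.1+ and from 432 to 585 CPM (median 467) in ccl34b.1- cells. The ranges overlapped through 1 ccl34b.1+ library, replicate 3, at 539 CPM. FGL2 was at 106, 71.8, 432, 263 and 127 CPM in ccl34b.1+ and 76.9, 252, 457, 185 and 365 CPM in ccl34b.1- cells, with wide overlap.

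DRAM1 varied most of the 4 in untreated fish, with 131, 70.4, 331, 26.5 and 37.8 CPM in ccl34b.1+ and 6.37, 65.4, 131, 237 and 25.6 CPM in ccl34b.1- cells. Its coefficient of variation was 105% and 101%, against a median of 34.4% and 50.5% for genes with a mean of at least 100 CPM in each gate. These medians are not matched on level. DRAM1 averaged 119 CPM in ccl34b.1+ cells and 92.9 CPM in ccl34b.1- cells, the latter under that cutoff. sdcbp2 was at 371, 678, 462, 244 and 301 CPM in ccl34b.1+ and 268, 167, 178, 148 and 154 CPM in ccl34b.1- cells, overlapping at 1 library of each gate. None of the 4 gate differences passed edgeR's quasi-likelihood test (lygl1 -0.64 ± 0.30, adjusted p = 0.468, FGL2 -0.42 ± 0.55, 0.998, DRAM1 0.36 ± 0.89, 0.998, and sdcbp2 1.17 ± 0.36, 0.107), where 321 of 8658 genes (3.71%) were called, or 187 with a replicate block. DRAM1 changed sign without ccl34b.1+ replicate 3 (-0.47). sdcbp2 passed with DESeq2 (adjusted p = 0.0485).

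Over the 8 groups, ccl34b.1+ cells of E. coli fish, whose rise chose the genes, came first for each gene and did not overlap the next group. For lygl1 the order continued with ccl34b.1- cells of E. coli fish, also apart from the rest, then control, untreated and PBS ccl34b.1- cells, which overlapped, and the ccl34b.1+ cells of the other treatments. For DRAM1 the ccl34b.1- cells of E. coli fish came second and apart, and the 6 other groups overlapped their neighbours. For sdcbp2 the ccl34b.1- cells of E. coli fish overlapped the ccl34b.1+ cells of untreated fish, next in the order. For FGL2 the second place was held by ccl34b.1+ cells of PBS fish at 876 ± 482 CPM (n = 4), overlapping ccl34b.1- cells of E. coli fish at 717 ± 167 CPM (n = 3).

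Some libraries ranked alike for several genes. Of the PBS ccl34b.1- libraries, replicate 4 was lowest for all 4 genes and was the deepest of its group at 9.00 M counts. Of the E. coli ccl34b.1- libraries, replicate 3, at 9.69 M counts, was lowest for FGL2, DRAM1 and sdcbp2. In both gates of control fish replicate 2 was the higher library for all 4 genes. The part of depth in these orders was not tested.

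Across the 18 injection libraries FGL2, DRAM1 and sdcbp2 had closely similar patterns and lygl1 was less like them. Pearson's r of log2 CPM was 0.938 for FGL2 with sdcbp2, 0.936 for DRAM1 with sdcbp2 and 0.911 for FGL2 with DRAM1. For lygl1 it was 0.797 with DRAM1, 0.690 with sdcbp2 and 0.607 with FGL2. These points share treatments and gates, so the values are descriptive. They also include the libraries that chose the genes, and that choice favours a likeness among the 4. The closest genes were taken among those with a proper symbol, so clone-style names and bare gene IDs were left out of the ranking. Over the same 18 libraries, those most like lygl1 were olmf4l1 (0.917), prdx1 (0.902), olfm4l2 (0.898), cxcl11.1 (0.893) and mxf (0.889). The closest to DRAM1 were ATP6V0C, a subunit of the proton pump that acidifies lysosomes (0.949), and cybb, the catalytic subunit of the phagocyte NADPH oxidase (0.944), followed by sdcbp2 and the lysosomal membrane gene cd68 (0.923). Both ATP6V0C (0.932) and cybb (0.944) were also among the 5 closest genes with a proper symbol for sdcbp2, with il4i1 (0.915). FGL2 was also close to SLC2A6 (0.914), ALDOA (0.903) and MFAP4 (ENSDARG00000089667, 0.896).

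Of 7 related gene IDs (lygl2, fgl1, fgl1b, fgl2b, sdcbp and the pair named DRAM2), sdcbp had 0 counts in every library, and lygl2, the other goose-type lysozyme, averaged 2.52 ± 4.00 CPM (n = 3) after E. coli in ccl34b.1+ cells. One of the DRAM2 genes (ENSDARG00000044241) had group means from 100.2 to 218 CPM in the injection experiment, and was at 175, 177 and 119 CPM after E. coli and 142, 98.3, 114 and 183 CPM after PBS in ccl34b.1+ cells. The groups overlapped, and the difference was 0.23 ± 0.67 (log2, adjusted p = 0.999, edgeR). The other DRAM2 gene (ENSDARG00000043569) had 0 counts in all ccl34b.1+ libraries and was at 0, 3.81 and 86.4 CPM in ccl34b.1- cells after E. coli, against at most 0.113 CPM after PBS (adjusted p = 0.224, edgeR).

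Lists of genes from the processes in which the 4 take part were read in the E. coli against PBS contrast, without the 4 genes. Among 15 measured lysozymes and other antibacterial effectors, 4 rose and 1 fell in ccl34b.1+ cells, with a median log2 change of 1.79 against -0.19 over all genes and a background of 1.51% called. Those that rose were NCF1, an organising subunit of the NADPH oxidase (242 to 5098 CPM, 4.40 ± 0.46), cybb (202 to 1622 CPM, 3.01 ± 0.44), cyba (436 to 1804 CPM, 2.05 ± 0.39) and the peptidoglycan recognition gene pglyrp5 (0.378 to 200.3 CPM). Their adjusted p-values were 2.12e-07, 6.05e-05, 0.00183 and 0.0269 by edgeR's quasi-likelihood test. The one that fell was MPEG1 (ENSDARG00000055290), a pore-forming protein gene whose promoter drives the sort reporter, at 121.8 CPM after E. coli against 757 CPM (-2.64 ± 0.48, adjusted p = 0.00101, edgeR). ACOD1, the enzyme that makes itaconate, did not pass but was at 8020 to 10824 CPM after E. coli against 1.47 to 62.3 CPM after PBS. pglyrp5 and ACOD1 were named after their values were seen. In ccl34b.1- cells NCF1 alone of this list was called, at 734 against 187 CPM (1.97 ± 0.42, adjusted p = 0.0198, edgeR), with overlapping libraries.

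Of 29 measured genes of the NF-kB pathway and its feedback, 4 rose and 1 fell in ccl34b.1+ cells, with a median of 1.27 and the same background of 1.51%. Those that rose were the NF-kB inhibitor nfkbiaa (102 to 1027 CPM, 3.33 ± 0.52), the ubiquitin-editing gene TNFAIP3 (3.49 ± 0.74), its partner TNIP1 (3.60 ± 0.79) and the ubiquitin ligase BIRC2 (2.52 ± 0.59). Their adjusted p-values were 0.00013, 0.00632, 0.0087 and 0.0169 by edgeR. MYD88, the adaptor of Toll-like receptors, fell from 952 ± 258 to 281 ± 33.3 CPM (-1.76, adjusted p = 0.0194, edgeR), a value singled out after it was seen. In ccl34b.1- cells 0 of the 29 were called, where 0.403% of all genes were.

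The lists nearest to DRAM1, FGL2 and sdcbp2 held 0 to 2 calls each in ccl34b.1+ cells, where 1.51% of all genes were called. Of 51 measured autophagy genes 1 rose, the receptor TAX1BP1 (ENSDARG00000056856, 57.1 to 389 CPM, 2.77 ± 0.58, adjusted p = 0.00573, edgeR), and 1 fell, VMP1 (2085 to 391 CPM, -2.42 ± 0.52, adjusted p = 0.00793, edgeR), with a median of 0.16. Of the 51 genes, 8 were at 0 counts in a group. With 4 of these left out and the others set to a floor of 3 counts over that group, the median was 0.21. Of 18 p53 targets 1 rose, TP53INP1, from 0.237 to 68.5 CPM (adjusted p = 0.0464, edgeR), with a median of 0.07. This median turned to -0.04 when the 3 genes at 0 counts in a group were left out. Of 12 coagulation and fibrinolysis genes 1 rose, the protease inhibitor gene SERPINE2, at 0 counts in the PBS libraries and 40.4 CPM after E. coli, at least 211-fold higher against a floor of 3 counts over the PBS group (adjusted p = 0.025, edgeR), with a median of -0.54. Of 31 genes of syndecans and exosome sorting 0 rose or fell, with a median of -0.10. In ccl34b.1- cells these 4 lists had 0 calls among the 50 of all genes (0.403%). For PBS against control 0 of all 12421 genes (0%) were called in either gate, so the lists could hold no call there.

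**Figure D4:**
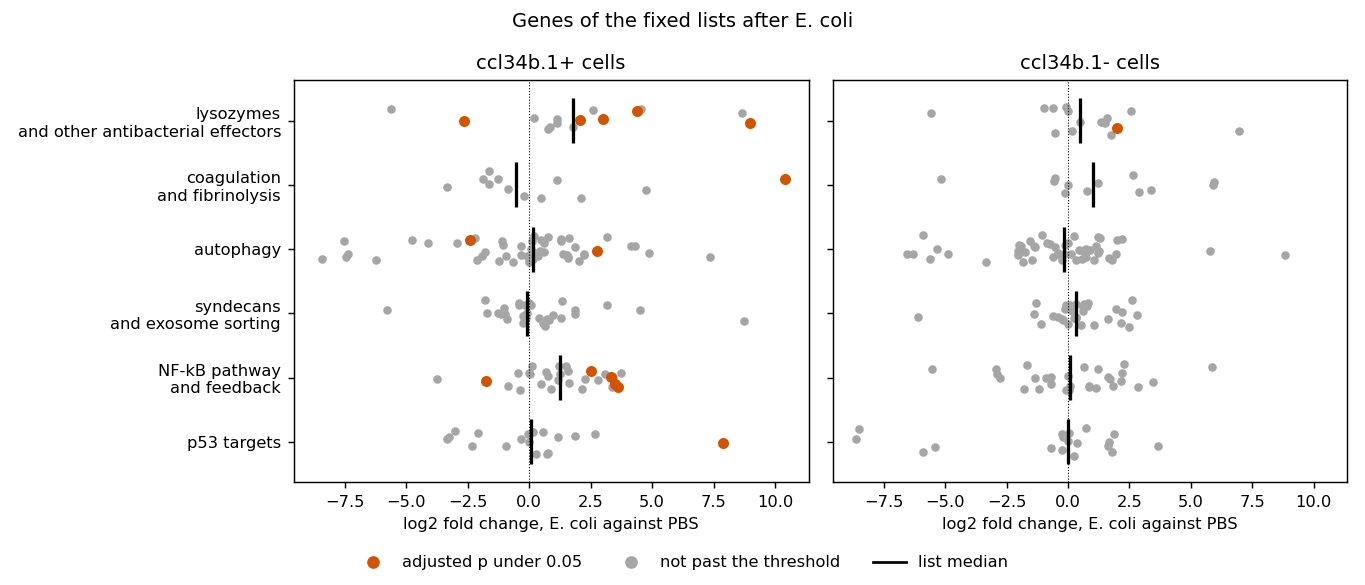
Fitted log2 fold changes of E. coli against PBS for the measured genes of 6 lists in ccl34b.1+ (left) and ccl34b.1- cells (right). Each point is a gene, orange where the adjusted p was under 0.05, and black bars are list medians. The antibacterial and NF-kB lists have medians of 1.79 and 1.27 in ccl34b.1+ cells.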

How the data were processed

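The authors deposited 1 table of raw counts (reads per gene, whole numbers). The submitters' processing notes name STAR, featureCounts, DESeq2 and GRCz11. Versions and the handling of strand and of reads with several matches are not given in the sources used here. Per the labels' protocols, cDNA came from Smart-seq2 without molecular identifiers, so the counts are of amplified reads and a floor of counts covers counting error only. All 28 count columns matched a sample title. Libraries came from separate fish within a group.

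Levels are CPM computed on TMM-scaled totals, within each experiment. edgeR 4.0.16 (R 4.3.3; filterByExpr, robust quasi-likelihood fit, two-sided, Benjamini-Hochberg over all fitted genes, threshold 0.05) was run on the 18 injection libraries as 6 groups sharing 1 estimate of the spread (12421 genes), and on the 10 untreated libraries alone (8658 genes). The gates of a fish were not paired in these fits. The code was tested on simulated data. Adjusted p-values with no other tool beside them are from this test, and SEs come from its F statistics. Alternatives were DESeq2 1.42.0 (size factors, test), limma 3.58.1 voom with quality weights, other filters, a replicate block, other sets of libraries and leaving out each library.

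The genes, their lists and the tests were chosen with earlier results of these data known. Named genes were the 4 members and their relatives, and up to 4 genes per list by adjusted p in ccl34b.1+ cells. Also named were the 5 genes with a proper symbol closest to each member by Pearson's r of log2 CPM (prior count 2). Of 280 list symbols 258 (92.1%) matched, some by dropping a paralog letter, a step set after the name table was seen. No gene lengths were used, so levels are compared within a gene only.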

Additional observations from a re-analysis of the deposited data

Results flagged for a closer look

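lygl1 in ccl34b.1+ cells of untreated fish was at 539 CPM in replicate 3, far above the next library at 281 CPM. sdcbp2 was at 268 CPM in ccl34b.1- cells of untreated replicate 1, where the next library had 178 CPM. sdcbp2 was also at 595 CPM in the ccl34b.1+ library of PBS replicate 2, where the next had 352 CPM. These 3 came from 16 sets of values (4 genes in 4 groups of 4 or 5 libraries), which share libraries, and of which chance sets apart about 1 in 20.

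The gate difference of lygl1 (log2, ccl34b.1+ against ccl34b.1- cells) was -1.71 in control, -1.38 in PBS and 1.34 in E. coli fish. All ccl34b.1+ libraries were lower in the first pair of treatments and all were higher in the third. The difference between treatments was not tested, since the E. coli libraries chose the gene.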

How the results depend on the processing

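In ccl34b.1- cells, the FGL2 difference between E. coli and PBS stayed between 1.34 and 1.61 but missed the threshold with DESeq2 size factors (1.38, adjusted p = 0.0885), a mean of at least 10 CPM (1.48, 0.0743) and voom (1.61, 0.904). voom gave FGL2 weights of 3070 to 7429 in the E. coli ccl34b.1+ libraries and 0.876 to 13.7 elsewhere. Weights were also higher in those libraries for lygl1 (174 to 334 against 1.91 to 56.9), DRAM1 (55.1 to 99.8 against 0.733 to 6.46) and sdcbp2 (115 to 216 against 1.60 to 6.52). Fitting the compared groups alone uses fewer samples: 9 genes were called against PBS (lygl1 1.61, FGL2 1.51, DRAM1 1.99, none called) and 0 against control (FGL2 3.18, DRAM1 2.68). With the 9 ccl34b.1- injection libraries alone, chosen after seeing the data, 21 genes were called against PBS (lygl1 1.62, FGL2 1.52, DRAM1 2.00, none called) and 13 against control (FGL2 3.19, called, and DRAM1 2.68, not called). Against control in ccl34b.1- cells, voom gave 1.51 for lygl1 (adjusted p = 0.0291), 3.13 for FGL2 (0.85) and 2.89 for DRAM1 (0.0792). The control gate difference of lygl1 passed with DESeq2 size factors (-1.89, 0.0438) and with DESeq2's test (-1.89, 0.0112). The untreated gate difference of sdcbp2 passed with DESeq2 (1.098, 0.0485) and with all 28 libraries in the fit (1.14, 0.0199). The cause of these changes was not tested.

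Counts of called genes, in the order E. coli against PBS, PBS against control and E. coli against control (all ccl34b.1-), were 50, 0 and 34. They became 178, 13 and 124 with no filter, and 1177, 127 and 635 with DESeq2; the last 2 were 41 and 115 with voom. The control gate count of 108 became 175, 454 and 662 under these settings, and the untreated one of 321 became 576 with DESeq2, 602 with voom and 782 with all 28 libraries. In ccl34b.1+ cells the 188 calls became 284, 974 and 659, and 320 with the compared groups alone. For PBS against control in that gate the 0 calls became 21, 82 and 207, 1 with a mean of at least 10 CPM, and 3 with the compared groups alone.

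Leaving out 1 library, E. coli and PBS in ccl34b.1- cells gave 26 to 90 calls, lygl1 1.49 to 1.90, FGL2 1.42 to 1.75, DRAM1 1.85 to 2.27 and sdcbp2 1.01 to 1.32. Calls fell to 32, 31 and 26 without PBS replicate 1, PBS replicate 3 and E. coli replicate 2, and rose to 90 without E. coli replicate 3. Against control calls were 7 to 49, with DRAM1 2.21 to 3.63. The control gate gave 38 to 61, the untreated gate 231 to 315 and PBS against control 0 to 1. In ccl34b.1+ cells E. coli against PBS gave 101 to 162. Directions turned for DRAM1 between untreated gates without ccl34b.1+ replicate 3 (range -0.47 to 1.07). They also turned for lygl1 in PBS against control, ccl34b.1- cells, without control replicate 2 (range -0.66 to 0.28). For PBS against control in ccl34b.1+ cells the ranges of lygl1 (-0.06 to 0.20), DRAM1 (-0.10 to 1.19) and sdcbp2 (-0.07 to 0.39) crossed 0 as well.

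Each brain gave cells of both gates, so the gate differences have a pairing by fish that the main fit did not use. Same-numbered libraries deviated together only weakly (r from 0.00297 to 0.0389, against -0.0389 to 0.0216 for other libraries). Values of this size cannot show that equal numbers are not the same fish. With a replicate block FGL2 in ccl34b.1- cells was 1.34 (adjusted p = 0.0708), and the gate counts became 198 in control and 187 in untreated fish. In treatments with 3 or more pairs, 10 of 12 libraries in each gate correlated best with their own number. That is a hint from the data that equal numbers mark the same fish.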
